A study of Homo sapiens with 8 samples.

Results

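The HOXC genes are 1 of the 4 human HOX clusters and lie on chromosome 12q13. Of this locus, 7 HOXC genes and the long non-coding RNA gene *LINC02381* were examined in LNCaP cells that over-expressed *HIST1H1A*. The 8 genes were found by symbol and gene identifier in the array's annotation, and each was read by a single transcript cluster, the probe set with which the array measures a gene. They are 8 of the 16377 transcript clusters in the table used here, of which 4247 carried a gene symbol. They had been selected on their log2 difference between the groups in these same arrays, so their levels are given as a description, with no p-value, and the count of them that the fit over all clusters called is printed without being read as a result. *HOXC5* and *HOXC6* were not analysed here.

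LNCaP is a line of human prostate tumor cells that carries the androgen receptor. Total RNA of 8 LNCaP clones was hybridized, each clone on an array of its own, to Human Gene 2.0 ST arrays from Affymetrix. Lentivirus carried either a control vector (clones 3, 4, 8 and 9) or *HIST1H1A*, which encodes the linker histone H1.1 (clones 2, 8, 9 and 10). Both groups had been selected with blasticidin and cloned by serial dilution, and with 1 array for a clone, differences between clones and differences in measurement cannot be told apart. The comparison asks how the expression of genes differs between clones with *HIST1H1A* and clones with the control vector.

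HOX genes encode transcription factors that bind DNA through a homeodomain and give cells their position along the body axis. Within a cluster they stand in the order in which they are used, so that *HOXC4* belongs to the front of the series and *HOXC13* to its rear end. Polycomb complexes keep the clusters silent where they are not needed, and Trithorax complexes with menin keep them active. In bulk RNA, a larger share of cells with a transcript and more transcript per cell cannot be told apart. Array signals of different genes are not comparable as levels, so each gene is compared only with itself across clones.

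Sequence of the locus was taken from RefSeq in the build GRCh38.p14, since the deposited table holds none. Promoter windows, from 250 bases before to 50 bases after a start site, were at hand for 2 of the 8 genes, *LINC02381* and *HOXC4*, which are the gene with the widest difference between the groups and the gene at the front of the cluster. They are printed 5′ to 3′ with the CCAAT box (CCAAT or, on the other strand, ATTGG) and the E-box CACGTG in capitals.

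LINC02381, chr12:54125821-54126120, plus strand: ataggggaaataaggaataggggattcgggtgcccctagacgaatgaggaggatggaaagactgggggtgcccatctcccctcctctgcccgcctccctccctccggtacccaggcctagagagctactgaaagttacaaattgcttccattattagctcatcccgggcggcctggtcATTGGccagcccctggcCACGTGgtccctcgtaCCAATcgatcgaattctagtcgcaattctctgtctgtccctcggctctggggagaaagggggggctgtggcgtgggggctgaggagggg
HOXC4, chr12:54016638-54016937, plus strand: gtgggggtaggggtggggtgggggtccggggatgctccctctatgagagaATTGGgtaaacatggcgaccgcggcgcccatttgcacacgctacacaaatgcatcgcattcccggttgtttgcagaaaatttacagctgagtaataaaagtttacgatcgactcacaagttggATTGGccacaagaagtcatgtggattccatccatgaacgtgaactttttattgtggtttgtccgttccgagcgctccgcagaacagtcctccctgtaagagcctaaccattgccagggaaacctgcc

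Each of these windows held 2 CCAAT boxes, a motif found in 34.6% of the 35116 promoter windows in the table. The *LINC02381* window also held 1 E-box CACGTG between its CCAAT boxes, which 7.26% of all windows hold. Neither held the TATA box TATAAA on either strand (11.5% of all windows do). The *LINC02381* window held 13 CpG dinucleotides and the *HOXC4* window 15, where the median over all windows was 14. The *HOXC4* window is also that of *HOXC5* in the table, since RefSeq gives both genes a common start.

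The cluster also holds 2 microRNA genes. *MIR196A2* lies between *HOXC10* and *HOXC9*, and *MIR615* lies within *HOXC5*. The mature strands below are shown because they are encoded among the genes described, with the seed (bases 2 to 8), which pairs with target messages, in capitals. miR-196a is known to target HOX messages, among them *HOXC8*. The 2 seeds differ.

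hsa-miR-196a-5p, chr12:53991762-53991783, plus strand: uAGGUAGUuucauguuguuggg
hsa-miR-615-3p, chr12:54034010-54034031, plus strand: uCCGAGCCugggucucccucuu

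Along the cluster, the genes in the middle were higher in *HIST1H1A* clones, the 2 genes at the rear end were lower on average with overlapping groups, and *LINC02381*, beyond the front end, differed most. In all, 5 of the 8 genes were called higher by limma at an adjusted p under 0.05 and none was called lower. Over all 16377 clusters, 3.77% were called higher and 2.02% lower. The arrays of the groups did not overlap in the same 5 of 8 genes, and in 11.1% of all clusters. Nothing is read from these counts, since the same contrast chose the genes. The median log2 difference, *HIST1H1A* minus control clones, was 0.72 over the 8 genes and -0.01 over all clusters.

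**Figure D1:**
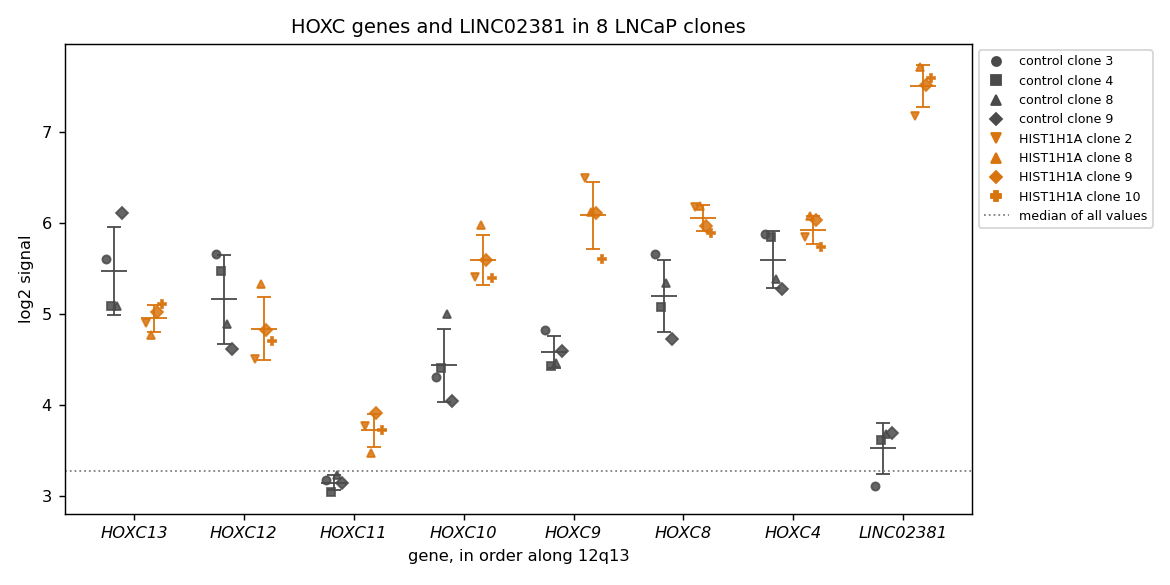
Log2 signal of the 7 HOXC genes and *LINC02381*, in order along 12q13, for 4 control clones (grey) and 4 *HIST1H1A* clones (orange). Symbols are single arrays, horizontal lines with bars are mean and SD, and the dotted line is the median of all values on the arrays, 3.27. The groups are apart in *HOXC11*, *HOXC10*, *HOXC9*, *HOXC8* and *LINC02381* and overlap in *HOXC13*, *HOXC12* and *HOXC4*.

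*LINC02381* is an intergenic long non-coding RNA gene downstream of *HOXC4*. Its log2 signal was 3.11, 3.62, 3.69 and 3.69 in control clones 3, 4, 8 and 9, and 7.18, 7.72, 7.51 and 7.59 in *HIST1H1A* clones 2, 8, 9 and 10. All 4 control clones thus lay near the median of all values, and the lowest *HIST1H1A* clone was 3.49 above the highest control clone on the log2 scale. The log2 difference was 3.97 (standard error 0.18), or 15.7-fold. Control clone 3 stood below the other control clones, and without it the difference was the smallest of those with 1 array left out, 3.83. No background level was measured here, and the fold rests on a low control signal.

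*HOXC9* encodes a factor of the lower trunk that is also studied in neuronal differentiation of neuroblastoma. It had the largest difference among the HOXC genes. Per clone, its log2 signal was 4.82, 4.43, 4.47 and 4.60 in control clones 3, 4, 8 and 9, and 6.49, 6.12, 6.11 and 5.61 in *HIST1H1A* clones 2, 8, 9 and 10. Clone 10 was the lowest of the *HIST1H1A* clones and still 0.79 above the highest control clone. The log2 difference was 1.50 (standard error 0.19), or 2.83-fold, from 4.58 ± 0.18 (SD, n = 4) to 6.08 ± 0.36 (SD, n = 4).

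*HOXC10*, the next gene toward the rear end, is expressed in the hindlimb and the lumbar spinal cord. Its log2 signal was 4.31, 4.40, 5.00 and 4.04 in control clones 3, 4, 8 and 9, and 5.41, 5.98, 5.59 and 5.40 in *HIST1H1A* clones 2, 8, 9 and 10. Clone 8 was the highest of either group. The gap between the highest control clone and the lowest *HIST1H1A* clone was 0.40, and the log2 difference was 1.16 (standard error 0.22). *HOXC11*, whose protein acts in the hindlimb and the caudal trunk, had a log2 signal of 3.18, 3.04, 3.23 and 3.14 in control clones 3, 4, 8 and 9, and of 3.78, 3.47, 3.91 and 3.73 in *HIST1H1A* clones 2, 8, 9 and 10. All 4 control clones were under the dotted median of 3.27 in the plot by gene, so that the log2 difference of 0.57 (standard error 0.12) rests on a low signal. Its SD between control clones, 0.08, was the smallest among the 8 genes.

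*HOXC8* encodes a factor of the thoracic trunk that is also known to dampen androgen receptor signaling when over-expressed in prostate cancer cells. Its log2 signal was 5.66, 5.07, 5.34 and 4.72 in control clones 3, 4, 8 and 9, and 6.18, 6.18, 5.96 and 5.89 in *HIST1H1A* clones 2, 8, 9 and 10. The groups were apart by 0.23, and the log2 difference was 0.86 (standard error 0.20). The control clones spread by an SD of 0.40 and the *HIST1H1A* clones by 0.15. *HOXC4*, which is reported at higher levels in prostate tumors, had a log2 signal of 5.88, 5.84, 5.39 and 5.28 in control clones 3, 4, 8 and 9, and of 5.85, 6.07, 6.03 and 5.74 in *HIST1H1A* clones 2, 8, 9 and 10. Control clones 3 and 4 lay within the range of the *HIST1H1A* clones, and the log2 difference was 0.32 (standard error 0.17), which was 0.72 within clones 8 and 9 alone. *HOXC4* shares its start with *HOXC5* in RefSeq, and whether its cluster reads that gene as well was not checked.

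At the rear end of the cluster, *HOXC13* switches on hair keratins in the hair follicle, and *HOXC12* is a neighbouring gene of the same caudal group. *HOXC13* had a log2 signal of 5.60, 5.08, 5.09 and 6.11 in control clones 3, 4, 8 and 9, and of 4.90, 4.77, 5.02 and 5.11 in *HIST1H1A* clones 2, 8, 9 and 10. Control clone 9 was the highest, and its removal moved the log2 difference from -0.52 (standard error 0.23) to -0.31. *HOXC12* had a log2 signal of 5.66, 5.47, 4.89 and 4.62 in control clones 3, 4, 8 and 9, and of 4.51, 5.33, 4.82 and 4.70 in *HIST1H1A* clones 2, 8, 9 and 10. Both groups covered much the same range, with a log2 difference of -0.32 (standard error 0.27). It was -0.15 without control clone 3 and -0.50 without control clone 9. Within clones 8 and 9 alone the *HOXC12* difference had the opposite sign, 0.32.

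With 1 array left out, the log2 difference was 3.83 to 4.08 for *LINC02381*, 1.37 to 1.66 for *HOXC9*, 1.02 to 1.34 for *HOXC10*, 0.51 to 0.66 for *HOXC11*, 0.70 to 1.01 for *HOXC8* and 0.22 to 0.42 for *HOXC4*. These ranges describe the arrays that also chose the genes and are no test of them. The widest relative shifts were those of *HOXC12* and *HOXC13* given above.

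The spread between clones differed from gene to gene. The SD between control clones was 0.49 for both *HOXC13* and *HOXC12*, with a median of 0.27 over all clusters. The SD between *HIST1H1A* clones ranged from 0.15 for *HOXC8* and *HOXC13* to 0.36 for *HOXC9*, where the median over all clusters was 0.21. In all of the genes but *HOXC11* and *HOXC9*, the control clones spread more widely than the *HIST1H1A* clones. *HIST1H1A* clone 8 was the highest of its group in 5 genes (*HOXC12*, *HOXC10*, *HOXC8*, *HOXC4* and *LINC02381*) and clone 10 the lowest in 4. Control clone 9 was the lowest of its group in *HOXC12*, *HOXC10*, *HOXC8* and *HOXC4* and the highest in *HOXC13* and *LINC02381*. No clone was therefore high or low throughout the locus.

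Genes of the same locus that were not used to choose the 8 were tested with limma over all clusters, with adjustment over all 16377. Of the 4 other genes within the cluster, *HOXC13-AS*, *HOTAIR*, *MIR196A2* and *MIR615*, none passed (0 of 4 also at an unadjusted p under 0.05 and with the methods' t-test), where 5.79% of all clusters passed in either direction. *HOTAIR* is a long non-coding RNA made from the strand opposite to *HOXC11* that binds Polycomb proteins. Its log2 signal was 2.66, 2.53, 2.58 and 2.31 in control clones 3, 4, 8 and 9, and 2.60, 3.06, 2.60 and 2.80 in *HIST1H1A* clones 2, 8, 9 and 10. All 8 arrays were under the median signal of 3.27, and the log2 difference was 0.24 (95% interval -0.08 to 0.57, adjusted p = 0.53 from limma).

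*HOXC13-AS*, which overlaps *HOXC13* on the other strand, had a log2 signal of 6.27, 5.96, 5.26 and 6.57 in control clones 3, 4, 8 and 9, and of 5.46, 5.75, 5.43 and 5.64 in *HIST1H1A* clones 2, 8, 9 and 10. As in *HOXC13*, control clone 9 was the highest array. The log2 difference was -0.44 (95% interval -1.03 to 0.15, adjusted p = 0.53 from limma). Whether the clusters of these overlapping genes read only 1 strand was not checked. The cluster of *MIR196A2* had a log2 difference of -0.19 (95% interval -0.48 to 0.10) and that of *MIR615* one of -0.03 (95% interval -0.58 to 0.52). The group means of *MIR196A2* were below the median of all values. These clusters read the microRNA genes, and the mature strands printed above were not measured.

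**Figure D2:**
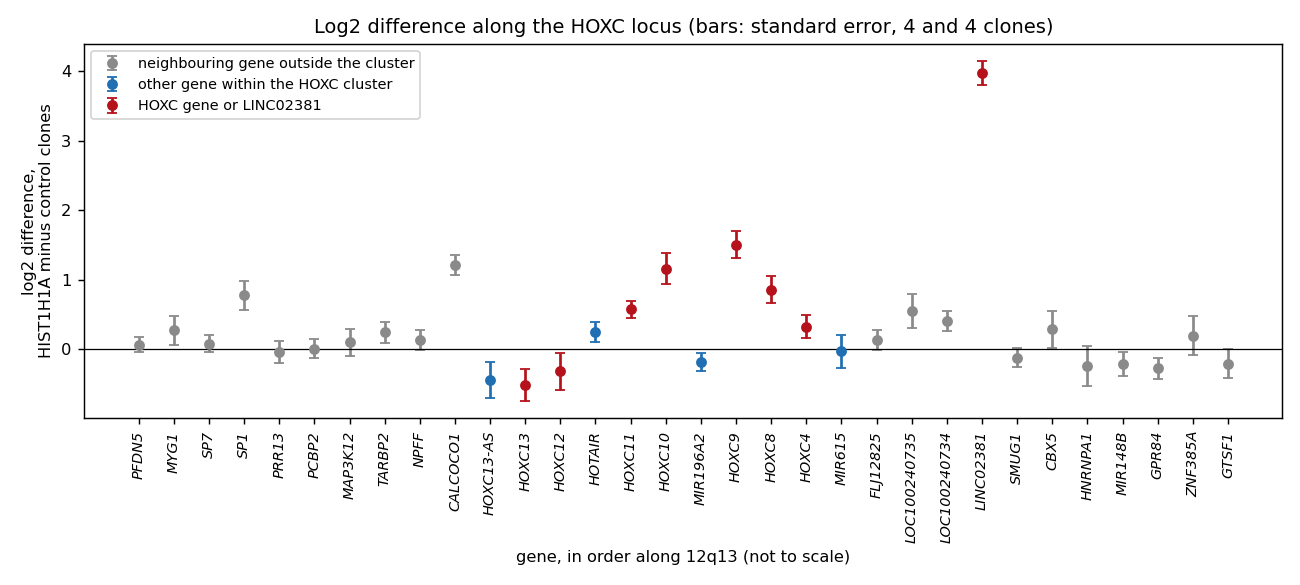
Log2 difference (*HIST1H1A* minus control clones, y axis) of 32 genes in their order along 12q13 (x axis, not to scale), with the standard error from limma as bars. HOXC genes and *LINC02381* are red, other genes within the cluster blue and neighbouring genes grey. Over the HOXC genes alone, the differences go from below 0 to 1.50 at *HOXC9* and back to 0.32 at *HOXC4*, while *HOTAIR* at 0.24 and *MIR196A2* at -0.19 lie among them and depart from that course, and *LINC02381* stands alone at 3.97 between neighbours at 0.41 and -0.13.

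Outside the cluster, the 10 nearest named genes on each side that were measured here were tested in the same way. Of these 20 neighbours, 1 was higher in *HIST1H1A* clones and none lower (3 at an unadjusted p under 0.05), with 5.79% of all clusters called. Their median log2 difference was 0.11. The gene that passed was *CALCOCO1*, the nearest one beyond *HOXC13*, which encodes a coiled-coil protein known as a transcriptional coactivator. Across clones the log2 signal of *CALCOCO1* was 5.62, 5.90, 5.78 and 5.70 in control clones 3, 4, 8 and 9, and 6.82, 7.28, 6.96 and 6.77 in *HIST1H1A* clones 2, 8, 9 and 10. It rose by 1.21 on the log2 scale (95% interval 0.89 to 1.53, adjusted p = 0.0015 from limma), while of the 4 genes between it and *HOXC11*, *HOXC13-AS*, *HOXC13* and *HOXC12* had log2 differences below 0 and *HOTAIR* one of 0.24. *CALCOCO1* was called in all 13 alternatives that use 7 or 8 arrays, with an adjusted p from limma or the methods' t-test of 0.0013 to 0.0089.

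Around *LINC02381* the neighbours did not pass. The non-coding gene *LOC100240734*, the nearest one toward *HOXC4*, had a log2 signal of 2.81, 2.62, 2.44 and 2.46 in control clones 3, 4, 8 and 9, and of 2.97, 2.82, 3.29 and 2.87 in *HIST1H1A* clones 2, 8, 9 and 10. The groups did not overlap, and the log2 difference was 0.41 (95% interval 0.08 to 0.74, adjusted p = 0.20 from limma), at signals that but for 1 array lay below the median of all values. *LOC100240735* had a log2 difference of 0.55 (95% interval -0.01 to 1.11) and *FLJ12825* one of 0.13 (95% interval -0.20 to 0.46). On the far side of *LINC02381*, the DNA repair gene *SMUG1* had a log2 difference of -0.13 (95% interval -0.43 to 0.18, adjusted p = 0.79 from limma). The heterochromatin protein gene *CBX5* followed with 0.29 (95% interval -0.32 to 0.89). With 20 genes on each side in place of 10, 4 of 40 were called, all higher: *CALCOCO1*, *ESPL1*, *ZNF740* and *TMT1B*. Over all clusters, 3.77% were called higher. The log2 difference was 2.47 for *TMT1B* (adjusted p = 0.00033 from limma), 1.299 for *ESPL1* and 0.68 for *ZNF740*. *TMT1B* thus differed more than any of the 7 HOXC genes, and *ESPL1* more than all of them but *HOXC9*.

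The products that act on HOX genes or together with them were counted from lists. A gene is called measured here if a cluster in the table used here carried its symbol, and 12130 clusters carried none. None of the 9 listed cofactors of the PBX, MEIS and PKNOX families was measured in this sense. Whether the array itself reads them was not checked. Of 48 Polycomb and Trithorax genes, 13 were measured, 2 rose, none fell and 11 did not pass, beside 5.79% of all clusters. *MEN1* encodes menin, the scaffold that Trithorax methyltransferases need at HOX genes. Across clones the log2 signal of *MEN1* was 8.31, 8.11, 7.94 and 7.84 in control clones 3, 4, 8 and 9, and 9.27, 9.31, 9.28 and 8.81 in *HIST1H1A* clones 2, 8, 9 and 10. Clone 10 lay below the other *HIST1H1A* clones and above all control clones. *MEN1* rose by 1.12 on the log2 scale (95% interval 0.76 to 1.49, adjusted p = 0.0039 from limma).

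*PHC1*, a subunit of Polycomb repressive complex 1, had a log2 signal of 5.60, 5.99, 5.39 and 5.80 in control clones 3, 4, 8 and 9, and of 6.87, 7.52, 7.31 and 7.23 in *HIST1H1A* clones 2, 8, 9 and 10. All *HIST1H1A* clones were above all control clones, and *PHC1* rose by 1.53 on the log2 scale (95% interval 1.13 to 1.94, adjusted p = 0.0015 from limma). A further cluster of *PHC1* had a log2 difference of 1.16 (adjusted p = 0.046 from limma). The genes that rose thus belong to a complex that keeps HOX genes active and to one that silences them. *MTF2*, a partner of Polycomb repressive complex 2, had a log2 difference of 1.21 (95% interval 0.42 to 2.01, adjusted p = 0.097 from limma) and did not pass. Of 26 retinoid genes, listed because retinoic acid induces HOX genes, 3 were measured and none passed (1 at an unadjusted p under 0.05, and none with the methods' t-test). *CRABP2*, a carrier of retinoic acid, had a log2 difference of 0.57 (95% interval 0.03 to 1.11, adjusted p = 0.29 from limma). *CDX2*, a caudal factor upstream of HOX genes, had one of 0.34 (95% interval -0.01 to 0.69, adjusted p = 0.35 from limma), with groups that did not overlap. No HOX gene outside the HOXC cluster was found by symbol in the table used here. Whether the array itself reads those genes was not checked.

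**Figure D3:**
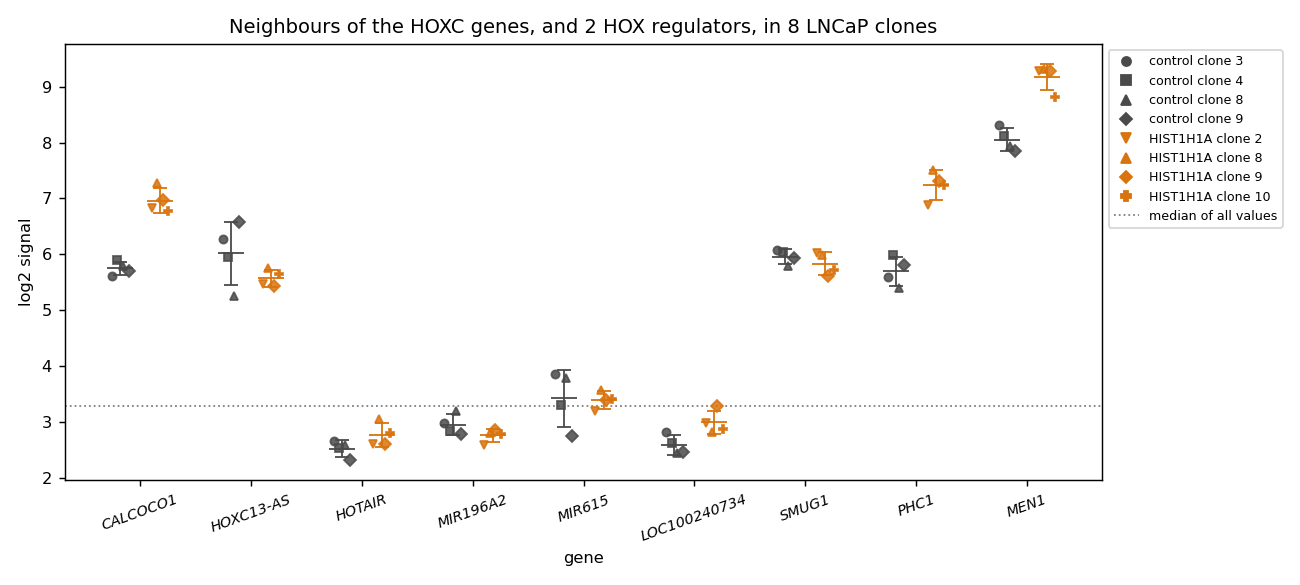
Log2 signal of 7 genes at or near the HOXC cluster and of the HOX regulators *PHC1* and *MEN1* in 4 control clones (grey) and 4 *HIST1H1A* clones (orange), with mean and SD. *CALCOCO1*, *PHC1* and *MEN1* do not overlap between the groups, nor does *LOC100240734*, where the gap is only 0.006. *HOTAIR* and *MIR196A2* stay below the median of all values, 3.27 (dotted line), on every array.

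Other genes with the most similar profile were sought among the 4064 other named genes, as the lowest root mean square difference between log2 signals over the 8 arrays, each gene centred on its own mean. This measure reads the difference between the groups as well as the order of the clones, and the genes found were not tested. *LINC02381* was most like *HTRA1*, a secreted serine protease (root mean square difference 0.29), *KIRREL1*, a cell adhesion molecule (0.35), and *FZD8*, a WNT receptor (0.39). *HOXC10* was most like the heme synthesis gene *UROD* (0.15), the endothelin-converting enzyme gene *ECE1* (0.23) and *CALCOCO1* (0.23), the neighbour of the cluster described above. *HOXC9* was most like *PALD1*, *GRAMD1B* and *CEP85*, at 0.18 to 0.19. *HOXC8* was most like *MCRS1*, *ACCS* and *GRK5*, at 0.15 to 0.16. *HOXC11* was most like *RASSF8-AS1*, *RAD51B* and *PBXIP1*, at 0.11 to 0.13. *HOXC4* was most like *PRR5L*, *CSTPP1* and *PEX14*, at 0.07 to 0.09. Those most like *HOXC13* were *DENND1B*, *IFT88* and *DHRS4L2*, at 0.16 to 0.18, and those most like *HOXC12* were *CD151*, *APOA4* and *FIBP*, at 0.14 to 0.15. No HOXC gene had *LINC02381*'s most similar genes among its own, and nothing is read from this. Profiles were not scaled, so the size of the group differences largely fixed it in advance. The genes most like *LINC02381* differed by 3.46 to 3.81 on the log2 scale, and the largest difference of a HOXC gene was 1.50.

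**Figure D4:**
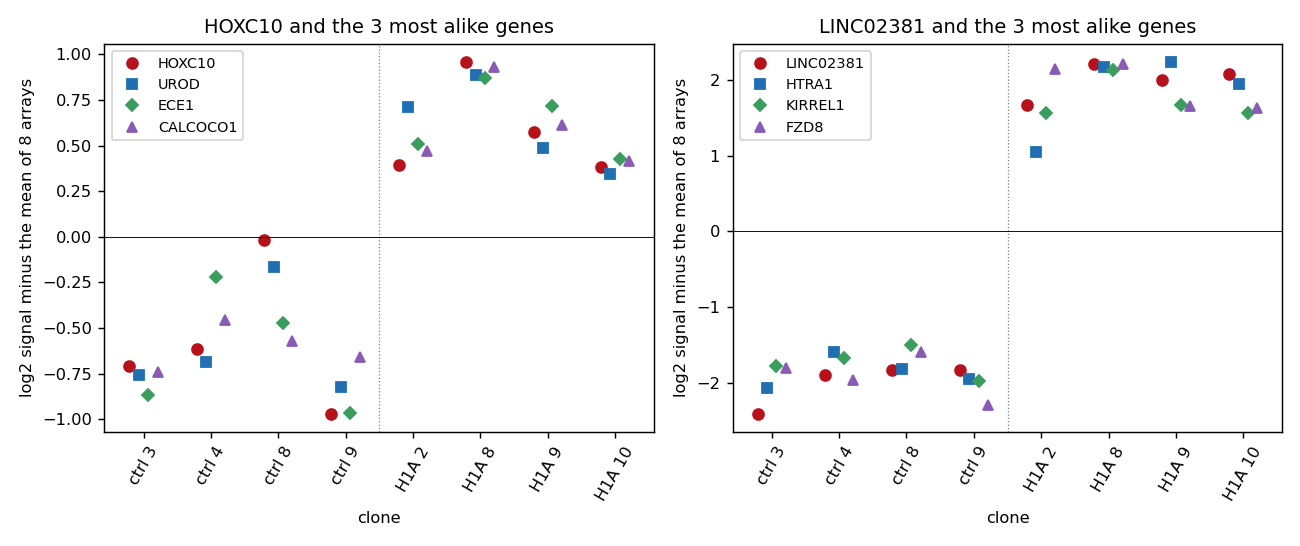
Log2 signal minus the gene's mean over 8 arrays, for each control clone (ctrl) and *HIST1H1A* clone (H1A), of *HOXC10* (left) and *LINC02381* (right) with their 3 most similar named genes. *UROD*, *ECE1* and *CALCOCO1* differ from *HOXC10* by a root mean square of 0.15 to 0.23, with clone 8 the highest *HIST1H1A* clone for each.

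Some of the markers of cell type also differed between the groups. The marker lists were chosen with earlier results of these data known, so the counts are a description. Over all 16377 clusters, 3.77% were called higher and 2.02% lower. Of 19 luminal prostate genes, 5 were measured (*FOLH1*, *KRT8*, *KRT18*, *EHF* and *CREB3L4*) and all 5 fell, though without *HIST1H1A* clone 10 and with the methods' t-test 3 of them passed. The summed linear signal of all 5 measured luminal genes was 1138 to 1812 in control clones and 153 to 169 in *HIST1H1A* clones. *FOLH1*, which encodes prostate-specific membrane antigen, was at a log2 signal of 2.65 ± 0.24 (SD, n = 4) in *HIST1H1A* clones, below the median of all values. Of 12 genes of PC-3 cells or of mesenchymal cells, 5 were measured and 3 rose, *VIM*, *CD44* and *ZEB1*, while *HMGA2* and *S100A4* did not pass. Of the 3 that rose, 2 passed without any 1 of *HIST1H1A* clones 2, 8, 9 and 10 or control clone 4. *VIM* has 3 clusters and was counted by the brightest. A further *VIM* cluster had a log2 difference of 2.11 (adjusted p = 0.0031 from limma). Another had one of 0.73 (adjusted p = 0.16 from limma) and did not pass. The summed linear signal of all 5 measured was 57.6 to 63.3 in control clones and 214 to 223 in *HIST1H1A* clones. *VIM*, at a mean log2 signal of 7.29 in *HIST1H1A* clones, was the brightest of them and weighs most in that sum. Of 8 genes of HEK293-type cells, 3 were measured, *NES*, *PAX2* and *WT1*, and none passed (1 at an unadjusted p under 0.05, and none with the methods' t-test). Their summed linear signal was 40.0 to 68.1 in control clones and 64.0 to 85.3 in *HIST1H1A* clones. The part of these markers in the differences of the HOXC genes was not tested. *HIST1H1A* itself was not analysed here, and the labels of the clones were therefore not checked against it in these arrays. The paper reports its expression in clonal isolates of LNCaP cells from qRT-PCR and Western blot. The median log2 signal of each of the 8 arrays lay between 3.25 and 3.30.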

How the data were processed

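The data were 8 Affymetrix Human Gene 2.0 ST arrays, 4 of control clones and 4 of *HIST1H1A* clones. The values that the authors deposited are log2 signal for each transcript cluster, analysed in Partek, and how they were summarized and normalized is not given in the sources used here. They were used as they stand. Gene symbols came from the annotation of the platform and were updated by gene identifier, and a gene with several clusters is given by the one with the highest mean. All 8 arrays entered a fit with lmFit and eBayes of limma 3.58.1 (R 4.3.3), without covariates and Benjamini-Hochberg adjustment over 16377 clusters, 12130 of them without a symbol here. A call is an adjusted p under 0.05. The authors name no test for the arrays. The t-test they name for replicate experiments is called the methods' t-test here and was run as an alternative. The 8 genes and the lists were chosen with earlier results of these data known, so the 8 genes get no p-value and nothing is read from how many of them the fit called. Neighbours were taken by RefSeq gene order. Named genes were the 8 genes with all their clusters, genes within the cluster, the nearest and the called neighbours, called list members, cell markers and the 3 most similar genes for each. Further genes that did not pass were named after their values were seen. The mean over a gene's clusters applied only to *PHC1* and *VIM*. Other alternatives were limma with trend, 2 normalizations, a filter on dim clusters, a fold over 2, leaving out each array and a block on clone number. The limma step was tested on simulated arrays. No protein sequences were used here. The number of arrays limits the precision. With 1 array per clone, p-values set the difference between the groups against the spread between these clones, differences in measurement included.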

Additional observations from a re-analysis of the deposited data

Results flagged for a closer look

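Among 62 genes of the locus and the lists, 4 of 124 groups of 4 clones held 1 clone that stood apart from the others, where chance alone gives about 6.2. *LINC02381* was at a log2 signal of 3.11 in control clone 3, where the nearest control clone was at 3.62. *MEN1* was at 8.81 in *HIST1H1A* clone 10 against 9.27. *SP7*, a neighbour of the cluster, was at 4.30 in *HIST1H1A* clone 9 against 4.03. *DHRS3*, of the retinoid list, was at 6.84 in control clone 4 against 5.22.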

How the results depend on the processing

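The sign of the log2 difference was the same for all 8 genes with either normalization and with any 1 array left out. The median log2 difference of the 8 genes was 0.64 to 0.80 with 1 array left out. The number of the 8 genes called, 5, became 3 with the methods' t-test, 3 with quantile normalization and 3 with a fold over 2 as well, and was 2 to 4 with 1 array left out. It was 2 without *HIST1H1A* clone 9 or control clone 4 and 3 without *HIST1H1A* clone 2, *HIST1H1A* clone 10 or control clone 9. The same arrays chose the genes, so these counts are a description and no measure of stability. Beside them, the calls over all 16377 clusters, 948, became 552 with the methods' t-test and 618 with a fold over 2 as well, and were 602 to 963 with 1 array left out, lowest without *HIST1H1A* clone 9. The cause of these differences was not tested. Among 20 neighbours, 2 passed with quantile normalization (*SP1* in addition), 1 to 1 with 1 array left out, and with 20 on each side 4 passed. Of the Polycomb and Trithorax genes, 2 to 3 passed with 1 array left out. Of the luminal markers 3 passed with the methods' t-test and 3 to 5 with 1 array left out, and of the mesenchymal markers 1 with a fold over 2 as well and 2 to 3 with 1 array left out. These alternatives for the markers, for the 4 genes within the cluster, the retinoid list, the other HOX list and the count of the 8 genes were chosen after seeing the data. Averaged over its clusters, *PHC1* had a log2 difference of 1.35. Both groups hold a clone 8 and a clone 9, which share a number and no origin, and the deviations of each such pair correlated at 0.07 and -0.22. In these 4 arrays with the replicate block limma called 0 of all clusters, 0 of the 8 genes, 0 neighbours, 0 Polycomb and Trithorax genes, 0 luminal and 0 mesenchymal markers. Without the block it called 75 of all clusters, 1 of the 8 genes, 0 neighbours, 0 Polycomb and Trithorax genes, 2 luminal and 1 mesenchymal markers. None of the alternatives called a gene within the cluster or of the retinoid, other HOX or HEK293-type lists. No alternative could be run for the cofactors, of which none was found by symbol in the table used here.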
